A study of Mus musculus with 15 samples.

Results

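The immediate early genes described here are 39 listed genes, matched by symbol in a count table of 40481 mouse genes and measured by RNA sequencing in 15 libraries from the back of the eye, which held the retinal pigment epithelium (RPE) and the vascular choroid it rests on. All 39 symbols were found. Of these, 37 passed a filter on low counts and were tested among 17991 genes, and Egr3 and Npas4 did not pass it. The study addressed what removing p16Ink4a-positive cells, a class of senescent cells, does to this tissue in mice that form drusen-like deposits under the retina. The 8 INK-ATTAC libraries came from mice with the genotype Abca1/Abcg1 flox/flox LysM-Cre plus the INK-ATTAC transgene, and the 7 control libraries from Abca1/Abcg1 flox/flox LysM-Cre mice that lacked it. Mice of both groups received AP20187 by intraperitoneal injection, and for INK-ATTAC mice a course of 3 months is stated. INK-ATTAC drives a fusion of FKBP and caspase 8 from the p16Ink4a promoter, and AP20187 joins the fusion proteins so that cells using the promoter die. LysM-Cre acts in myeloid cells, so both groups are models of lost cholesterol export in those cells and neither is wild type. Age and sex are not given in the labels used here. The labels also do not tie libraries to separate animals, so the p-values below measure the spread between these samples, which may be in part technical.

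Immediate early genes are transcribed within minutes of a growth factor, stress or depolarizing stimulus by factors that the cell already holds, such as SRF with its ternary complex partners and CREB, which ERK, p38 and calcium-dependent kinases activate. Their transcripts are short-lived, and the class includes the genes that end the response: phosphatases that inactivate MAP kinases, proteins that destabilize mRNA and inhibitors of cytokine and growth factor receptors. In the RPE and choroid, members of the class are known to respond to light, oxidants, cytokines, shear stress on endothelium and mechanical injury.

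Total counts per library ranged from 47954634 to 65065950 in INK-ATTAC libraries and from 39121503 to 59974025 in control libraries. The mean level of 8 RPE markers was 10.75 to 11.03 log2 CPM (reads of a gene per 1000000 counts of the library, as log2) in INK-ATTAC libraries and 10.72 to 11.04 in control libraries, and no marker of the RPE, endothelial, melanocyte or macrophage lists was at 0 in all libraries. Xist, the RNA of the inactive X chromosome, was low (0.551 to 1.87 CPM) in INK-ATTAC libraries 1 to 4 and in control libraries 1 to 3, and high (70.1 to 108 CPM) in the other libraries. With edgeR's quasi-likelihood test and Benjamini-Hochberg adjustment, 0 of the 17991 genes passed the threshold of 0.05, with 745 at an unadjusted p under 0.05. DESeq2 called 6 genes (758 at an unadjusted p under 0.05), limma-voom 0 (781) and limma-voom with sample quality weights 2 (1068), none of them a member.

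The promoters of Fos and of the members with a sequence whose levels followed that of Fos most closely are shown here, because these members had the highest correlations with Fos, as described further on. Each is the 250 bases before the RefSeq start of the gene (GRCm38.p6), read 5′ to 3′ on the strand of the gene, with capitals marking the motif matches named below. Fos lies at chr12:85473640-85473889 on the plus strand, Btg2 at chr1:134079156-134079405 on the minus strand, Dusp1 at chr17:26508473-26508722 on the minus strand, Nr4a1 at chr15:101266596-101266845 on the plus strand and Zfp36 at chr7:28379229-28379478 on the minus strand.
Fos: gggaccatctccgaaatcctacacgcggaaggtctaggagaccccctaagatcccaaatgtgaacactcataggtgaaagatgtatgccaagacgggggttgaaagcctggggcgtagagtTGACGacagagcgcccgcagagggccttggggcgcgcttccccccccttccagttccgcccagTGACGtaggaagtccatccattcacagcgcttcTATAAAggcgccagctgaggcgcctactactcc
Btg2: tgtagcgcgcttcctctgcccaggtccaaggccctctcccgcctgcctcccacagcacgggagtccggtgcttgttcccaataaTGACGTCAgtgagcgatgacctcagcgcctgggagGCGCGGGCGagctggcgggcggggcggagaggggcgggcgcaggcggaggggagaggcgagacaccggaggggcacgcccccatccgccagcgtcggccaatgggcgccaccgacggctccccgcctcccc
Dusp1: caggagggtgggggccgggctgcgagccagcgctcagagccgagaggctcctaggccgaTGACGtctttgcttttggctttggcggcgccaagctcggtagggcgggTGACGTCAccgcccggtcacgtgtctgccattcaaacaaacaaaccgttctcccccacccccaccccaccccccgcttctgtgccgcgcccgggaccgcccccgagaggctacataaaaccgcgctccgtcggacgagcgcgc
Nr4a1: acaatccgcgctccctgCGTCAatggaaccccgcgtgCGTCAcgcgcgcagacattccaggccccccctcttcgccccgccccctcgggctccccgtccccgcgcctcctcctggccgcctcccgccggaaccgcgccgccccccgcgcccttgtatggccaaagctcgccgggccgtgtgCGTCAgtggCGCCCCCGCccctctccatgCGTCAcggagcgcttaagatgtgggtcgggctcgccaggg
Zfp36: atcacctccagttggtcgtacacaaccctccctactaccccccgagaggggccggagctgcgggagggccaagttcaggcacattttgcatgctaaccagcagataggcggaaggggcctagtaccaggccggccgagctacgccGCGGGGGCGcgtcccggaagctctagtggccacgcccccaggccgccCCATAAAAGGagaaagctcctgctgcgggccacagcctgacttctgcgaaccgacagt

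6 kinds of match were searched on both strands of these windows. They were the cAMP response element (CRE) TGACGTCA that CREB binds, its core TGACG (which every CRE also holds), the AP-1 site TGANTCA, the EGR site GCGNGGGCG, TATAAA, and the CArG box that SRF binds. Btg2 held a CRE at position -166 and an EGR site at -131, with positions counted back from the RefSeq start. Dusp1 held a CRE at -143 and a further CRE core at -191. Fos held CRE cores at -129 and -66 and TATAAA at -33, Nr4a1 held CRE cores at -233, -213, -69 and -40 and an EGR site at -60, and Zfp36 held an EGR site at -105 and a CArG box at -58. Of the 39 members, 29 had a window. A CRE was in 2 of these (6.9%, against 1.62% of 27025 genes with a window) and a CRE core in 14 (48.3%, against 17.9%). An EGR site was in 10 windows (34.5%, against 4.65%), a CArG box in 2 (6.9%, Dusp5 and Zfp36, against 1.4%), TATAAA in 4 (13.8%, against 13%) and the AP-1 site in 0 (0.0%, against 6.87%). These are matches of letters in a short window and say nothing on their own about binding. Sequence outside the window was not searched, so a motif not found here, in Fos or another member, may lie farther away. The windows of all genes were not matched to those of the members in base composition, whose part in these shares was not tested.

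As a class, the immediate early genes were mostly lower in INK-ATTAC libraries, by amounts that did not pass the test. The log2 fold change, given throughout as INK-ATTAC over control, was below 0 in 30 of the 37 members tested and above 0 in 7 (81.1% lower, against 50.2% of all genes tested). Its median was -0.23 over the members and -0.00097 over all genes. With edgeR, 0 members passed and every member had an adjusted p of 1.00, where 0% of all genes passed. Of the 37, 6 had an unadjusted p under 0.05 on the lower side (Ier3, Dusp6, Ier2, Egr1, Btg2 and Junb), where 1.94% of all genes did, and 0 on the higher side, where 2.2% did. Many members rose and fell together between libraries (median correlation with Fos 0.46, described further on). These counts are therefore not of independent genes, and a few libraries can move the whole list. The ranges of the 2 groups overlapped for all 39 members, and did not for 0.0222% of the genes tested. In a bulk sample, fewer cells of a type and less RNA per cell cannot be told apart.

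Counts of members past an unadjusted p of 0.05 moved with single libraries and with marker levels. There were 10 without INK-ATTAC 7 and 10 without control 5. The median log2 fold change was -0.13 without control 6, -0.03 with the level of skeletal muscle markers as a covariate (2 members past an unadjusted p of 0.05, Dusp6 and Ier3) and -0.38 with the mitochondrial share of counts as a covariate. All 13 skeletal muscle markers were higher in INK-ATTAC libraries (median log2 fold change 0.86, 4 at an unadjusted p under 0.05), with a summed level of 749 to 4028 CPM, against 306 to 2829 CPM in control libraries. All 10 lens markers tested were higher (median 2.84, 8 at an unadjusted p under 0.05). Their sums were 21.6 to 3995 CPM in INK-ATTAC libraries and 20.95 to 833 CPM in control libraries. With the level of lens markers as a covariate, the members' median was -0.14, with 4 members past an unadjusted p of 0.05 in edgeR. With the level of rod markers as a covariate, the members' median was -0.25, with 5 members past it. All 10 rod markers were lower (median -0.25), with sums of 101 to 2055 CPM in INK-ATTAC libraries and 487 to 2278 CPM in control libraries. All 7 erythrocyte markers (median -0.46) and all 6 mast cell markers tested (median -0.37) were lower too, with 0 at an unadjusted p under 0.05. Erythrocyte sums were 114 to 1657 CPM in INK-ATTAC libraries and 237 to 2009.8 CPM in control libraries, and mast cell sums 19.0 to 76.3 CPM in INK-ATTAC libraries and 39.4 to 89.1 CPM in control libraries. No marker of these lists was at 0 in all libraries, and the part of these cells and tissues in the members' values was not tested beyond the muscle, lens and rod covariates.

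**Figure D1:**
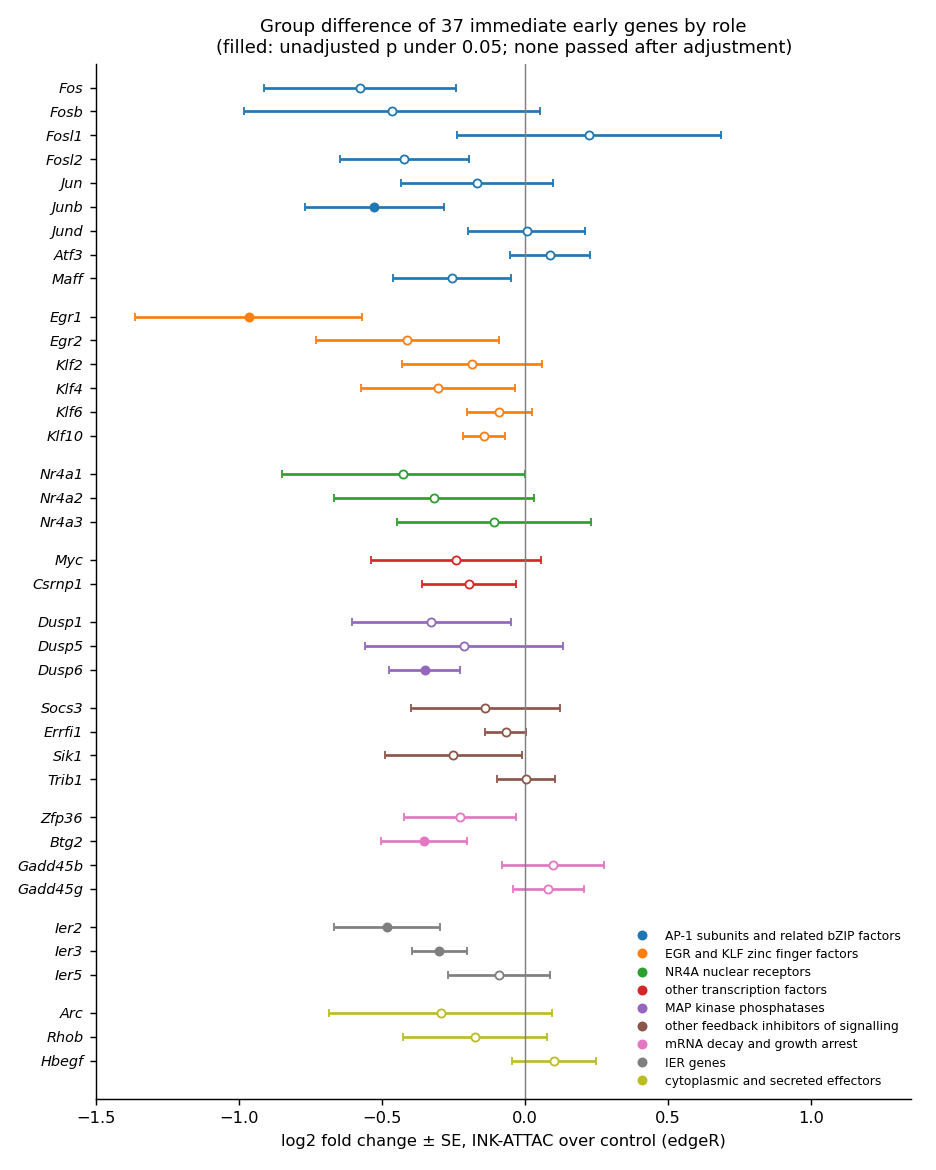
Log2 fold change of each of the 37 members tested (INK-ATTAC over control, edgeR) on the x axis, with bars of 1 SE, grouped by role from top to bottom. Filled points had an unadjusted p under 0.05; 30 of the 37 points lie left of 0, Egr1 is the farthest at -0.97, and no member passed after adjustment.

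Across genes, levels are comparable only per length, here CPM per kilobase of exon averaged over the 15 libraries. Dusp6 was the highest at 153, followed by Klf6 (22.7), Ier3 (21.3), Dusp1 (13.4) and Gadd45g (12.3). The genes the class is best known by stood further down, with Egr1 at 6.05, Fos at 4.84, Jun at 3.66 and Junb at 2.57 CPM per kilobase. The lowest were Npas4 (0.0121), Egr3 (0.0208), Fosb (0.0887), Fosl1 (0.120) and Arc (0.124).

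The AP-1 group holds the Fos and Jun proteins, which pair through leucine zippers and bind AP-1 sites, and their relatives Atf3 and Maff. Of its 9 members, 6 were lower and 3 higher, with 1 (Junb) at an unadjusted p under 0.05. Fos, whose product is the inducible AP-1 subunit, lies at chr12:85473890-85477273 on the plus strand (GRCm38) and had 3.22 CPM in the lowest, 6.56 in the median and 20.5 in the highest INK-ATTAC library, against 8.90, 13.2 and 21.6 CPM in the lowest, median and highest control library. In 5 of the 8 INK-ATTAC libraries Fos was below every control library, while INK-ATTAC 7 lay among the highest controls. The log2 fold change of Fos was -0.58 (SE 0.33, unadjusted p = 0.102).

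Fosb, another Fos protein, sparse in this tissue, had 0.164, 0.359 and 1.20 CPM (lowest, median and highest, the order used from here on) in INK-ATTAC libraries, against 0.114, 0.836 and 1.25 CPM in control libraries. Its log2 fold change was -0.46 (SE 0.52). The groups spanned nearly the same range. Fosl2, a Fos-related subunit that lacks the strong activation domain of Fos, had 3.72, 7.43 and 11.2 CPM in INK-ATTAC libraries, against 5.69, 10.6 and 13.7 CPM in control libraries (log2 fold change -0.42, SE 0.22). For Fosl2, 3 control libraries lay above every INK-ATTAC library. Fosl1, the further Fos-related subunit, averaged 0.260 ± 0.218 CPM in INK-ATTAC libraries and 0.224 ± 0.077 CPM in control libraries, and 57.2% of its exon length is shared with exons of Ccdc85b on the other strand, so its value is uncertain.

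Jun, the main partner of Fos, had 4.02, 11.3 and 16.7 CPM in INK-ATTAC libraries, against 6.42, 12.2 and 17.3 CPM in control libraries. The groups overlapped over almost their whole range (log2 fold change -0.17, SE 0.27). Junb, a Jun protein that can restrain Jun activity, had 2.44, 4.88 and 7.84 CPM in INK-ATTAC libraries, against 3.69, 6.61 and 11.2 CPM in control libraries. Of the 8 INK-ATTAC libraries, 7 were below the control median of Junb, and its log2 fold change was -0.53 (SE 0.24, unadjusted p = 0.0438). Exons of Junb share 173 bases (7.52% of its exon length) with the opposite-strand gene Prdx2, which held 216909 counts against 4540 for Junb, so part of its count can come from that gene. Jun shares 7.28% of its exon length with the antisense gene Junos, which held 362 counts against 9096 for Jun. Jund shares 52.6% with the antisense gene Gm11175, which held 0 counts against 4346 for Jund. Jund, the Jun protein that most cells hold at rest, averaged 5.61 ± 2.02 CPM in INK-ATTAC libraries and 5.60 ± 1.15 CPM in control libraries.

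Atf3, a stress-induced repressor of the ATF family, did not share the lower trend. It had 7.09, 10.9 and 13.6 CPM in INK-ATTAC libraries, against 7.21, 9.86 and 12.4 CPM in control libraries (log2 fold change 0.09, SE 0.14). Maff, a small Maf protein with no activation domain, averaged 2.04 ± 0.57 CPM in INK-ATTAC libraries and 2.44 ± 0.64 CPM in control libraries (log2 fold change -0.26, SE 0.21).

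All 6 EGR and KLF zinc finger genes that were tested had a log2 fold change below 0, with 1 (Egr1) at an unadjusted p under 0.05. Egr1, an activator that growth factors and shear induce through SRF, had 9.41, 19.3 and 28.4 CPM in INK-ATTAC libraries, against 11.3, 24.4 and 68.6 CPM in control libraries. Its log2 fold change of -0.97 (SE 0.40, unadjusted p = 0.0253) was the most negative of the class in that fit. With limma-voom it was -0.74 (unadjusted p = 0.0927), and Nr4a1 (-0.75) and Fos (-0.75) were below it. Without control 1, 2 or 3 the unadjusted p of Egr1 was 0.0752, 0.0714 or 0.0580. The control libraries lay in separate ranges, with controls 1, 2 and 3 at 68.6, 67.1 and 54.8 CPM and controls 4 to 7 at 11.6, 11.3, 24.4 and 19.1 CPM. No INK-ATTAC library reached the level of the first 3 controls, and the other 4 lay within the INK-ATTAC range.

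Egr2, a relative of Egr1 known from myelinating Schwann cells, had 1.44, 2.09 and 3.98 CPM in INK-ATTAC libraries, against 0.843, 3.34 and 5.71 CPM in control libraries (log2 fold change -0.41, SE 0.32). Controls held both its lowest and its highest library. Egr3 was near the limit of detection, with 0, 0, 6, 2, 0, 6, 4 and 5 counts in INK-ATTAC libraries 1 to 8, against 16, 6, 8, 0, 4, 9 and 6 counts in control libraries 1 to 7. A count of 0 was found in 3 INK-ATTAC libraries and 1 control library, and each allows up to 3 counts.

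Klf2, a factor that laminar flow induces in endothelium, had 4.00, 6.77 and 13.8 CPM in INK-ATTAC libraries, against 6.01, 9.73 and 12.9 CPM in control libraries (log2 fold change -0.19, SE 0.24). Klf4, which flow also induces and barrier epithelia express, had 3.41, 6.94 and 15.7 CPM in INK-ATTAC libraries, against 6.30, 10.9 and 16.4 CPM in control libraries (log2 fold change -0.31, SE 0.27). For both genes the highest INK-ATTAC library was close to the highest control. Klf10, a repressor induced by TGF-beta, had 28.9, 34.9 and 39.8 CPM in INK-ATTAC libraries, against 33.5, 37.8 and 42.5 CPM in control libraries. It varied little between libraries, and its log2 fold change of -0.14 had an SE of 0.07 (unadjusted p = 0.0673). Klf6, an abundant injury-induced factor, averaged 96.7 ± 14.5 CPM in INK-ATTAC libraries and 103 ± 16.5 CPM in control libraries.

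The NR4A genes encode nuclear receptors that act without a known hormone and are controlled mainly by their own transcription. All 3 gave log2 fold changes below 0, and all 3 were above 0 with the skeletal muscle covariate. Nr4a1 had 3.22, 9.15 and 31.9 CPM in INK-ATTAC libraries, against 8.06, 14.8 and 25.9 CPM in control libraries. Both its lowest and its highest library belonged to the INK-ATTAC group, whose SD of 1.20 in log2 CPM, against 0.58 in control libraries, was the largest of the 37 members tested. The log2 fold change of Nr4a1 was -0.43 (SE 0.42). It was -0.77 without INK-ATTAC 7 and -0.29 without INK-ATTAC 2, and -0.75 with limma-voom. Nr4a2 averaged 1.38 ± 0.76 CPM in INK-ATTAC libraries and 1.73 ± 0.84 CPM in control libraries, and Nr4a3 averaged 2.31 ± 1.38 CPM and 2.51 ± 1.04 CPM in the same groups.

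Of the other transcription factors, Myc, which drives growth and division, averaged 2.53 ± 0.99 CPM in INK-ATTAC libraries and 2.99 ± 1.37 CPM in control libraries. Csrnp1, a nuclear protein induced by axin, averaged 5.39 ± 1.38 CPM in INK-ATTAC libraries and 6.17 ± 1.25 CPM in control libraries. Npas4, which depolarization induces in neurons, had 2, 1, 2, 4, 2, 1, 4 and 4 counts in INK-ATTAC libraries 1 to 8, against 3, 0, 5, 2, 3, 2 and 3 counts in control libraries 1 to 7. At such counts a difference was not detectable.

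The genes that shut off signalling after induction were lower in 6 of the 7 tested, with 1 (Dusp6) at an unadjusted p under 0.05. Dusp1, a nuclear phosphatase of p38, JNK and ERK, had 12.98, 35.7 and 66.8 CPM in INK-ATTAC libraries, against 38.6, 49.0 and 67.4 CPM in control libraries. The INK-ATTAC group split, with 5 libraries below every control and 3 libraries within the control range (log2 fold change -0.33, SE 0.28, and -0.21 without INK-ATTAC 2). Its SD in log2 CPM was 0.85 in INK-ATTAC libraries and 0.25 in control libraries. Its exons share 11 bases (0.332%) with Ergic1 on the other strand. Dusp6, the cytoplasmic phosphatase of ERK and the most abundant member (chr10:99263231-99267489, plus strand), had 341, 402 and 539 CPM in INK-ATTAC libraries, against 400.2, 499.9 and 715 CPM in control libraries. Of the INK-ATTAC libraries 7 lay below the control median, and the log2 fold change was -0.35 (SE 0.12, unadjusted p = 0.0117). The highest controls were again numbers 1, 2 and 3, at 715, 658 and 613 CPM. Dusp5, a nuclear phosphatase of ERK, averaged 0.511 ± 0.314 CPM in INK-ATTAC libraries and 0.593 ± 0.197 CPM in control libraries.

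Socs3, which blocks cytokine receptors that signal through JAK kinases, had 2.43, 4.60 and 7.09 CPM in INK-ATTAC libraries, against 2.59, 4.67 and 8.74 CPM in control libraries. Its medians nearly coincided (log2 fold change -0.14, SE 0.26). Errfi1, an inhibitor of the EGF receptor, averaged 18.5 ± 1.86 CPM in INK-ATTAC libraries and 19.4 ± 0.90 CPM in control libraries. Sik1, a kinase that restrains CREB coactivators, averaged 3.75 ± 1.76 CPM and 4.46 ± 0.93 CPM in the same groups. Trib1, a pseudokinase that directs protein degradation, averaged 43.3 ± 6.84 CPM in INK-ATTAC libraries and 43.2 ± 5.66 CPM in control libraries, with a log2 fold change of 0.0017.

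Zfp36 and Btg2 act on mRNA. Zfp36, also known as tristetraprolin, binds AU-rich elements and speeds decay of cytokine and immediate early transcripts. It had 14.4, 23.1 and 37.9 CPM in INK-ATTAC libraries, against 18.2, 32.0 and 33.5 CPM in control libraries (log2 fold change -0.23, SE 0.20). The 2 highest libraries of Zfp36 were INK-ATTAC 7 and INK-ATTAC 8. Btg2, an antiproliferative protein that recruits the CCR4-NOT deadenylase (chr1:134075170-134079120, minus strand), had 15.9, 22.4 and 35.5 CPM in INK-ATTAC libraries, against 24.3, 30.2 and 38.0 CPM in control libraries. Btg2 was below every control in 5 INK-ATTAC libraries (1, 2, 4, 5 and 6), the same ones as for Fos and Dusp1. Its log2 fold change was -0.35 (SE 0.15, unadjusted p = 0.0304). The stress-induced Gadd45b averaged 6.52 ± 1.11 CPM in INK-ATTAC libraries and 6.09 ± 1.99 CPM in control libraries, and Gadd45g averaged 14.8 ± 2.58 CPM and 14.0 ± 2.34 CPM in the same groups.

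The IER genes, named as immediate early response genes, included the member of lowest p. Ier3, which affects survival after stress (chr17:35821684-35822923, plus strand), had 18.4, 21.8 and 26.5 CPM in INK-ATTAC libraries, against 20.7, 26.02 and 31.0 CPM in control libraries (log2 fold change -0.30, SE 0.10, unadjusted p = 0.0062). For Ier3, 7 INK-ATTAC libraries were below the control median and 3 controls were above every INK-ATTAC library. Ier2, a nuclear protein with a less defined role (chr8:84661331-84662852, minus strand), had 6.19, 11.3 and 14.5 CPM in INK-ATTAC libraries, against 8.38, 14.8 and 20.1 CPM in control libraries. It was the only tested member with all 8 INK-ATTAC libraries below the control median (log2 fold change -0.48, SE 0.19, unadjusted p = 0.0185). Ier5 averaged 2.23 ± 0.45 CPM in INK-ATTAC libraries and 2.38 ± 0.61 CPM in control libraries.

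Among the effectors outside the nucleus, Arc, a synaptic protein of neurons, averaged 0.342 ± 0.248 CPM in INK-ATTAC libraries and 0.421 ± 0.165 CPM in control libraries. Rhob, a small GTPase of endosomes, averaged 17.4 ± 6.93 CPM in INK-ATTAC libraries and 19.7 ± 6.38 CPM in control libraries. Hbegf, a secreted ligand of the EGF receptor, averaged 11.5 ± 2.38 CPM and 10.8 ± 2.30 CPM in the same groups (log2 fold change 0.10, SE 0.15).

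**Figure D2:**
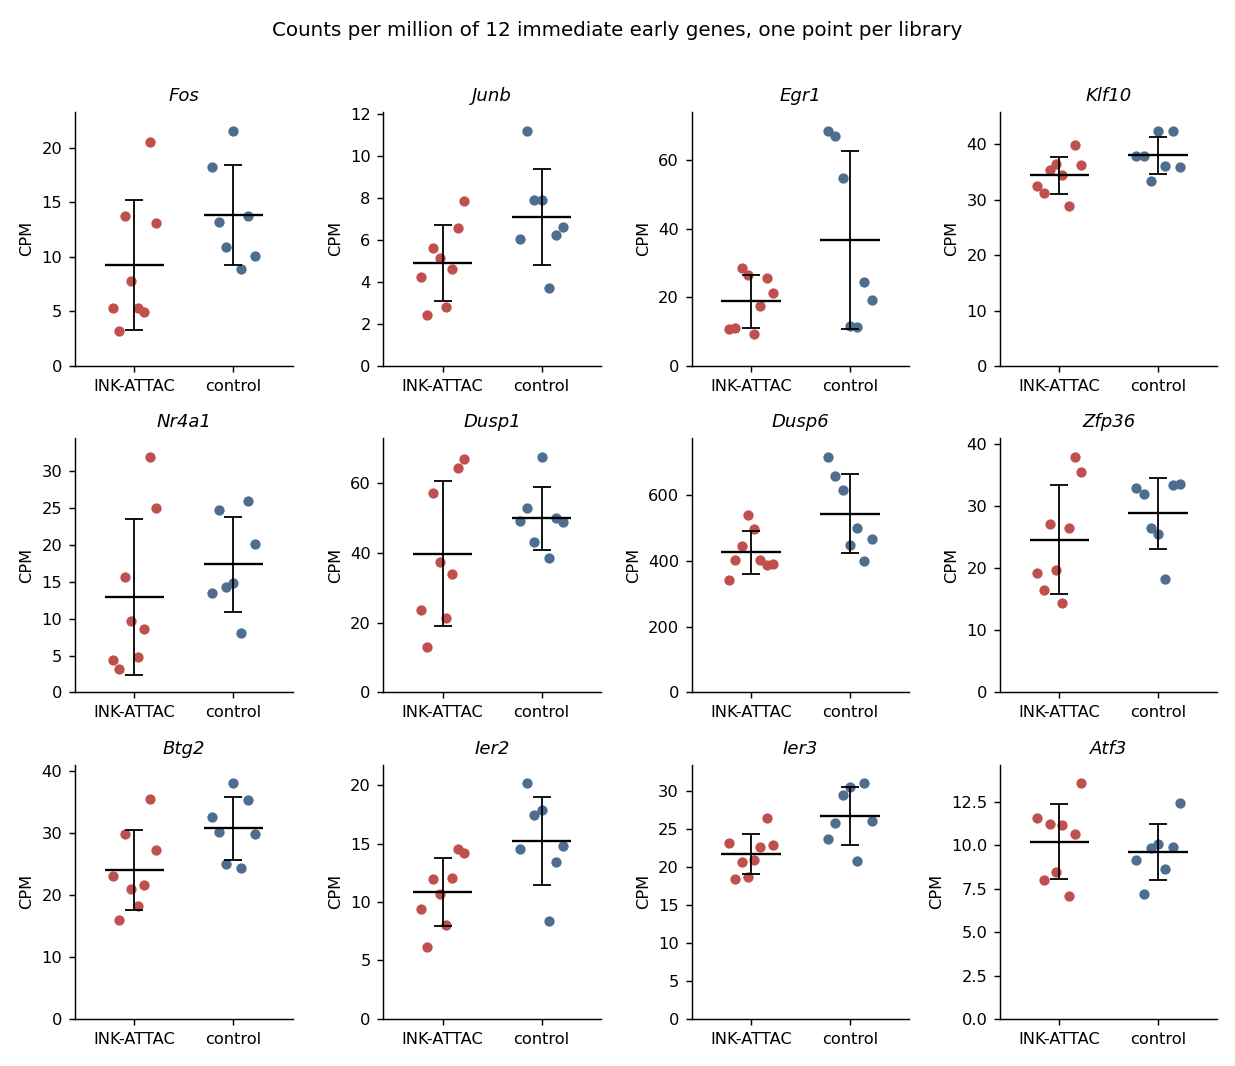
CPM (y axis, from 0) of 12 immediate early genes in each library, INK-ATTAC left and control right in each panel, with the mean as a horizontal line and the SD as a bar (n = 8 INK-ATTAC and 7 control libraries). Egr1 is high in 3 control libraries at 54.8 to 68.6 CPM, and Dusp1 has 5 INK-ATTAC libraries below every control library.

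In the authors' deposited table, which lists 33 of the members, 0 members had an adjusted p under 0.05, where 0.0208% of its genes did. The authors' deposited table gave Ier3 a log2 fold change of -0.29 with an adjusted p of 0.634, and Ier2 one of -0.56 with the same adjusted p. For Fos the authors' deposited table gave a log2 fold change of -0.75 and for Nr4a1 one of -0.96, each with an adjusted p of 0.727. In the authors' deposited table Egr1 stood at -0.97 with an adjusted p of 0.727.

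Of 31 genes for upstream kinases and factors, such as Srf, Creb1 and the ERK cascade, 18 were lower and 13 higher with 0 at an unadjusted p under 0.05 (median log2 fold change -0.02). Among those of lowest p were Braf, a kinase of the ERK cascade (-0.10, SE 0.08), and Mapkapk2, a kinase under p38 (0.15, SE 0.12). Of 13 partners of the AP-1, EGR and Zfp36 proteins, 10 were lower with 0 at an unadjusted p under 0.05 (median -0.10). Atf2, a bZIP partner of Jun, gave -0.10 (SE 0.07), Zfp36l2, a relative of Zfp36, -0.24 (SE 0.18), and the bZIP factor gene Maf -0.12 (SE 0.10).

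Of a further 34 genes known for rapid induction 33 were tested. Of these, 25 were lower and 8 higher, with 4 at an unadjusted p under 0.05, all lower (median log2 fold change -0.09). Ptgs2, the inducible cyclooxygenase, averaged 2.06 ± 0.68 CPM in INK-ATTAC libraries and 4.11 ± 0.75 CPM in control libraries (log2 fold change -0.999, SE 0.20), and edgeR gave an adjusted p of 0.515. Spry2, a feedback inhibitor of receptor tyrosine kinases that ERK induces, gave a log2 fold change of -0.29 (SE 0.08). Pim1, a survival kinase, gave -0.26 (SE 0.10). Among 15 delayed and AP-1 target genes 10 were lower with 0 at an unadjusted p under 0.05 (median -0.07), with Hmox1, the inducible heme oxygenase, at -0.17 (SE 0.08) and Vcl at -0.23 (SE 0.18). Among 11 heat shock genes 7 were lower with 0 at an unadjusted p under 0.05 (median -0.08), with the chaperone genes Dnaja1 at -0.16 (SE 0.08), Hspd1 at -0.13 (SE 0.07) and Hsph1 at -0.16 (SE 0.08).

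The members varied between libraries of the same group more than most genes did. Their median within-group SD was 0.50 in log2 CPM, against 0.27 for all genes tested, and 77% of all genes varied less than the median member. The SD was larger in INK-ATTAC than in control libraries for 24 of the 37 members (64.9%), against 41.9% of all genes. Averaged over the 37 members, the level was lowest in INK-ATTAC 2 (2.23 log2 CPM) and highest in INK-ATTAC 7 (3.41), with group means of 2.78 ± 0.39 in INK-ATTAC libraries and 3.05 ± 0.27 in control libraries (SD, n = 8 and 7). INK-ATTAC 7 held the highest INK-ATTAC value for 21 of the 37 members (56.8%, against 15.9% of all genes), and INK-ATTAC 2 the lowest for 15 (40.5%, against 17.7%). Among controls, control 5 was the lowest for 21 members (56.8%, against 22.7% of all genes) and control 6 the highest for 14 (37.8%, against 19.1%). Control 5 also had the highest mitochondrial share of counts of the 15 libraries, at 3.67%, where INK-ATTAC libraries averaged 2.55% and control libraries 2.79%, and its part in the members' values was not tested beyond the covariate. These 4 libraries were picked out after their values were seen.

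**Figure D3:**
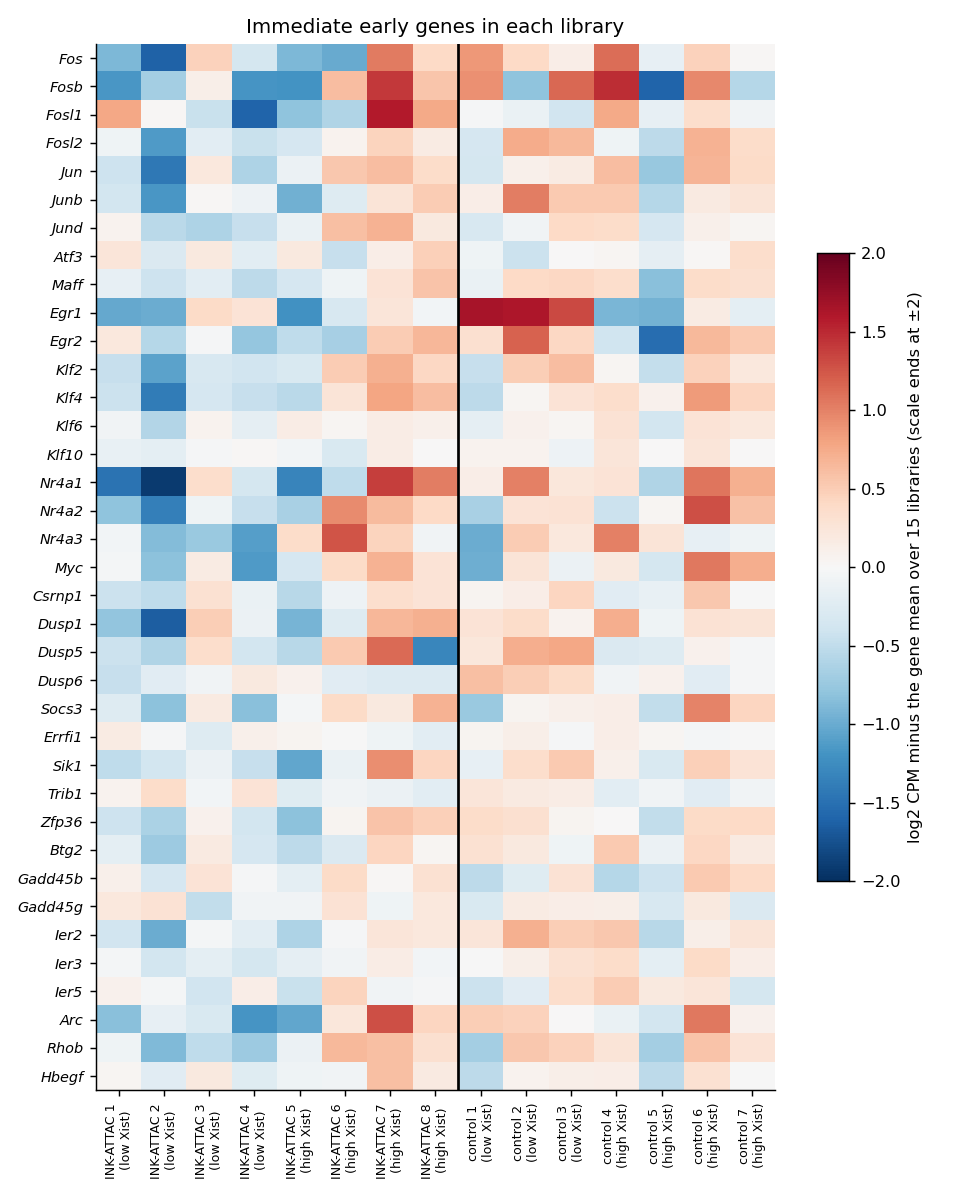
Log2 CPM of the 37 members tested (rows, by role) in each library (columns, INK-ATTAC left and control right), shown as the difference from the mean of that gene over all 15 libraries, with red higher and blue lower. INK-ATTAC 2 is blue and INK-ATTAC 7 red in most rows, and Egr1 is darkest red in controls 1 to 3.

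With both groups pooled, most members had a positive relation to Fos across libraries, and none passed the test after adjustment. The relation was measured as Pearson's r of each gene's log2 CPM with that of Fos over the 15 libraries, both as deviations from the group mean, so that a difference between the groups does not enter it, with 100000 permutations within groups and adjustment over 17990 genes. r was above 0 for 32 of the 36 other members (88.9%, against 52.3% of all genes), and its median was 0.46, against 0.019 for all genes. It exceeded 0.5 for 14 members, against 5.20% of all genes. No member passed the adjusted threshold in the permutation test (0% of all genes passed), and 13 members had an unadjusted p under 0.05 with a positive r, against 3.51% of all genes, and 0 with a negative r.

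Btg2 followed Fos most closely of the members (r = 0.914, Spearman's rho = 0.893, permutation p = 2e-05, adjusted p = 0.120), and Dusp1 came next (r = 0.909, rho = 0.905, permutation p = 5e-05, adjusted p = 0.180). Nr4a1 (0.817), Klf10 (0.767), Zfp36 (0.712), Junb (0.710) and Ier2 (0.710) had the next highest r. These 7 genes belong to 6 of the roles above. With each group taken alone, all of them but Nr4a1 had an r above 0.3 in both groups. They were picked by r over both groups, so this is partly built in. Dusp1 gave r = 0.933 in INK-ATTAC libraries and 0.836 in control libraries, while Nr4a1 gave 0.947 in INK-ATTAC libraries and 0.2004 in control libraries, a difference that was not tested. Among further members, Csrnp1 gave 0.910 in INK-ATTAC libraries and -0.164 in control libraries, and Klf4 gave 0.751 and -0.20. Fosb gave 0.660 and 0.717 in the same groups. Nr4a2 gave 0.597 in INK-ATTAC libraries and -0.490 in control libraries, and Gadd45b 0.432 and -0.483. Errfi1 (-0.628 and 0.576) and Gadd45g (-0.585 and 0.317) went the other way. The pooled r of a member therefore need not describe both groups, and the shares above hold for the pooled libraries only. Fosb had r = 0.627, and Jun, the partner of Fos, r = 0.604. Egr1 had r = 0.418 (permutation p = 0.0711). Errfi1 (-0.43), Trib1 (-0.36), Gadd45g (-0.32) and Ier5 (-0.12) were below 0, and Dusp6, the most abundant member, was at 0.019.

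The relation was also computed without single libraries. Without INK-ATTAC 2 and INK-ATTAC 6, the libraries farthest from the median of Fos, the median r of the members was 0.41, with 11 members at an unadjusted permutation p under 0.05, and Btg2 gave r = 0.894 and Dusp1 r = 0.910. Without INK-ATTAC 7 alone the median r was 0.33. By Spearman's rho 9 members had an unadjusted permutation p under 0.05. With the levels of rod and skeletal muscle markers removed as well, the median r was 0.40 and 29 members were above 0. Fos was also compared with the levels of 22 gene and marker lists, the mitochondrial share and the total count. The lowest adjusted permutation p of these 24 was 0.475, with the endothelial list at r = 0.494 (permutation p = 0.0510), the RPE list at -0.24, the macrophage list at 0.276 and the skeletal muscle list at -0.34.

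Of the genes outside the class, 6030458C11Rik had the highest r with Fos (0.856, permutation p = 1e-05, which is the smallest that the permutations can give, adjusted p = 0.120). It was followed by Gm15513 (0.847), Phip, which encodes a chromatin reader (0.826), Stc1, which encodes the secreted hormone stanniocalcin (0.798), and Postn, which encodes the matrix protein periostin (0.797).

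**Figure D4:**
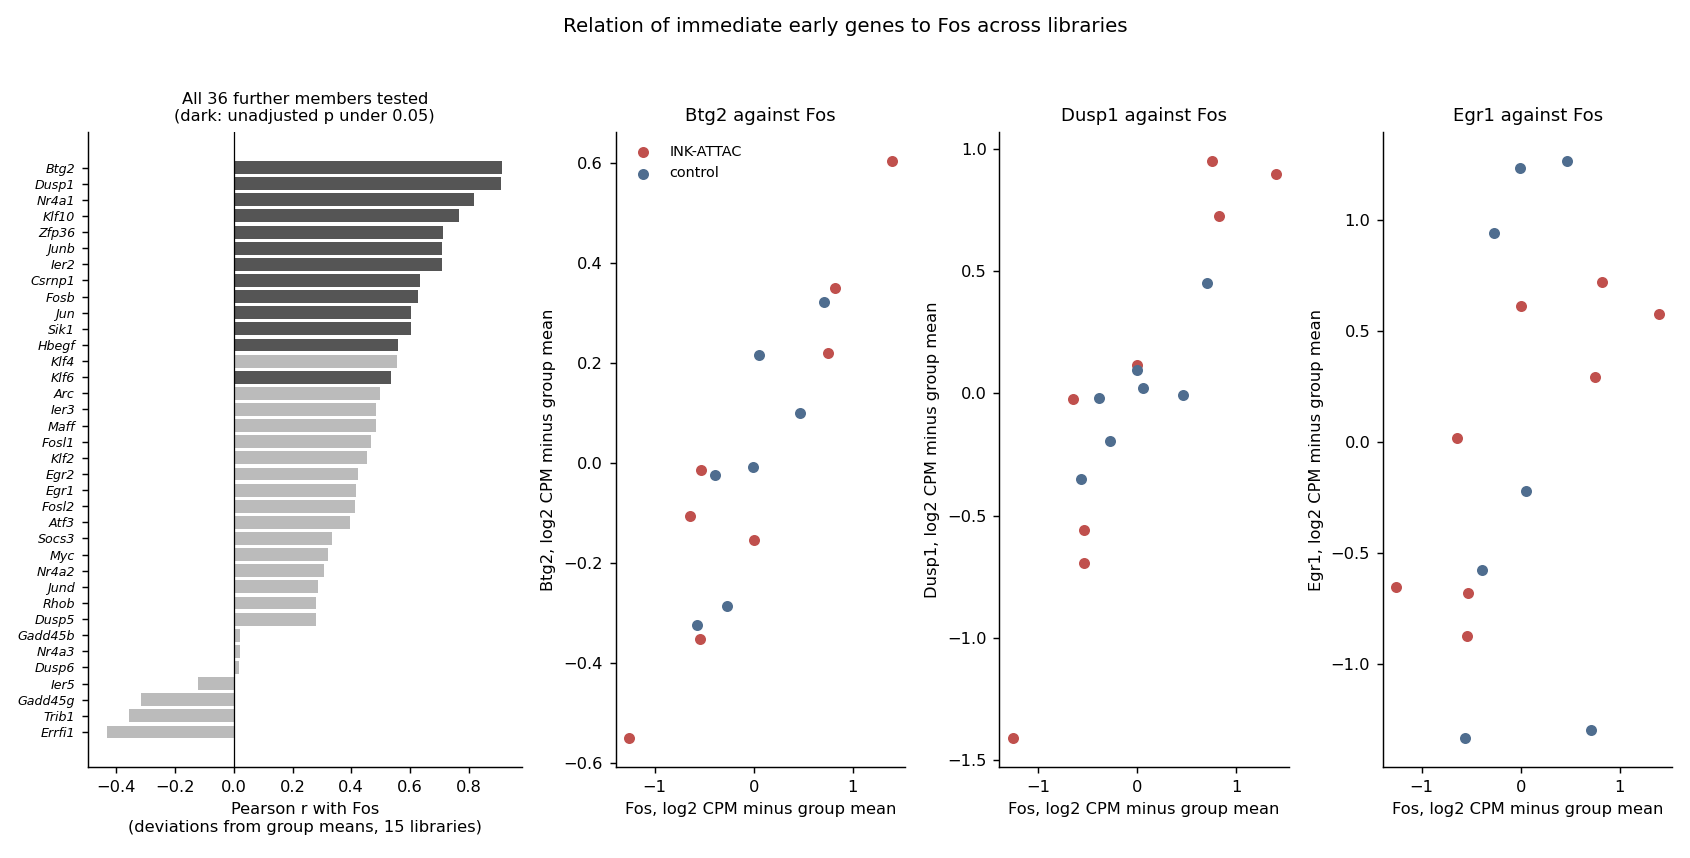
Left, Pearson's r of 36 members with Fos over 15 libraries (log2 CPM as deviations from group means), dark where the unadjusted permutation p was under 0.05. Right, Btg2, Dusp1 and Egr1 against Fos in the same units, INK-ATTAC libraries in red and control libraries in blue; Btg2 (r = 0.914) and Dusp1 (r = 0.909) follow a line in both groups, and Egr1 (r = 0.418) is split by 3 high controls.

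The labels do not give sex, and Xist was at separate levels, so the group difference was also read within each Xist class. In the low Xist libraries (4 INK-ATTAC and 3 control), 31 of 37 members were lower in INK-ATTAC libraries with a median log2 fold change of -0.56, and 16 had an unadjusted p under 0.05, all lower, where 2.32% of all genes did. In the high Xist libraries (4 INK-ATTAC and 4 control), 18 were lower and 19 higher with a median of 0.015, and 0 had an unadjusted p under 0.05 in either direction, where 4.19% of all genes did. The median over all genes was -0.00015 in the low class and 0.0052 in the high class. Here too, the counts of members are not of independent genes. The test of the difference between classes, an interaction term in edgeR, called 0 members and 0% of all genes. At an unadjusted p under 0.05 it held 5 members (Egr1, Klf2, Dusp6, Rhob and Jund), where 4.77% of all genes did. The lowest adjusted p of a member in that edgeR test was 0.876.

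Egr1 carried the largest such difference. In low Xist libraries 1 to 4 of the INK-ATTAC group it had 10.7, 10.96, 28.4 and 26.4 CPM, against 68.6, 67.1 and 54.8 CPM in controls 1 to 3, which did not overlap with them (log2 fold change -1.73, SE 0.34). Groups this small separate easily by chance, and the share of all genes without overlap in this class was not counted. In high Xist libraries 5 to 8 of the INK-ATTAC group it had 9.41, 17.5, 25.7 and 21.1 CPM, against 11.6, 11.3, 24.4 and 19.1 CPM in controls 4 to 7, which overlapped (log2 fold change 0.15, SE 0.32). The interaction was 1.88 (SE 0.52, unadjusted p = 0.0022). Klf2 gave -0.82 (SE 0.27) with low Xist and 0.28 (SE 0.24) with high Xist, and Dusp6 gave -0.62 (SE 0.14) and -0.11 (SE 0.11). Btg2, in contrast, gave -0.38 (SE 0.19) with low Xist and -0.31 (SE 0.21) with high Xist. Fos gave -0.91 (SE 0.41) with low Xist and -0.31 (SE 0.44) with high Xist, with large SEs. Its interaction did not reach an unadjusted p under 0.05 in edgeR. The low Xist controls are also controls 1 to 3 in the labels, so the class and anything else that those libraries share cannot be told apart.

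**Figure D5:**
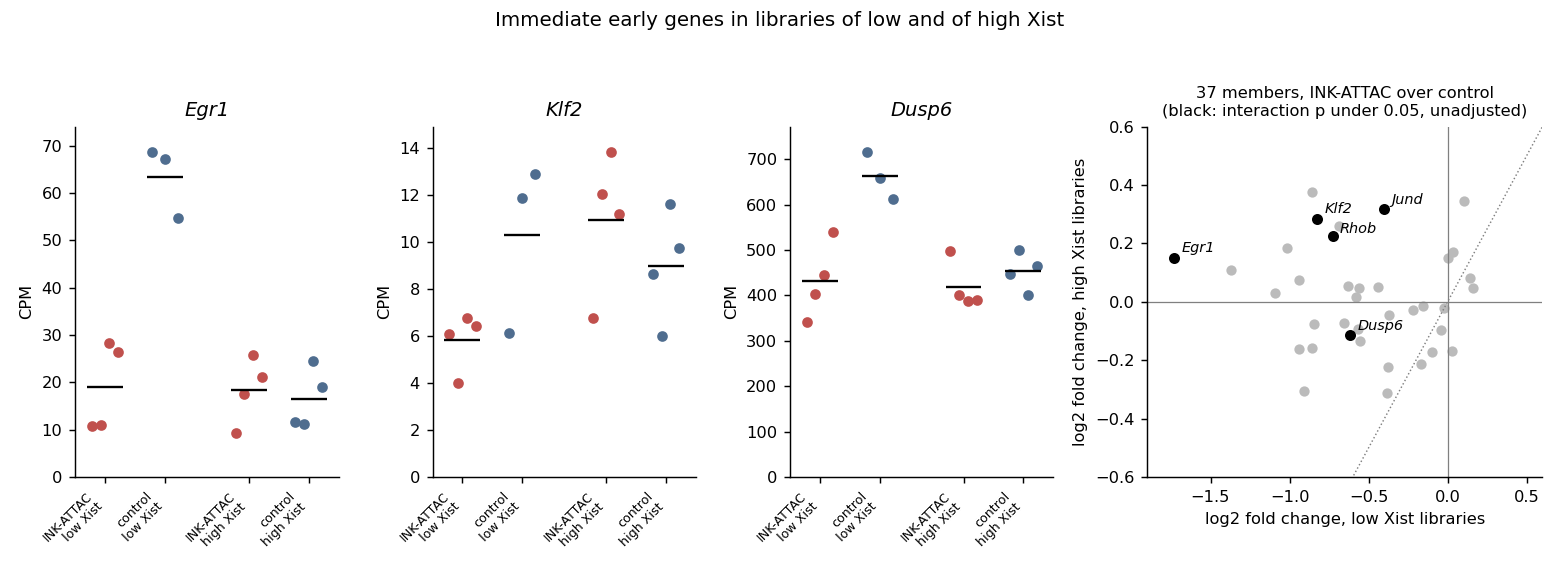
CPM of Egr1, Klf2 and Dusp6 (y axis from 0) by Xist class, INK-ATTAC left of control within each class, with a line at each mean, and right the log2 fold change (INK-ATTAC over control) of all 37 members in low Xist (x axis) against high Xist libraries (y axis), black where the unadjusted interaction p was under 0.05. Egr1 lies farthest left at -1.73, and the dotted line marks equal values.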

How the data were processed

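RNA was sequenced from RPE/choroid complex. Per the labels' protocols, TRIzol and NucleoSpin columns were used for extraction and the SMARTer method for amplifying cDNA. No molecular identifiers are named, and the limit given with the counts of Egr3 covers counting error only. The SEs and SDs include the spread between libraries. The authors deposited whole-number read counts per gene. Per the submitters' processing notes, bcl2fastq, DRAGEN, edgeR, limma and the GRCm38 build were used, and the sources used here give no versions, annotation or strand setting. Without the strand setting, reads of overlapping genes on opposite strands cannot be told apart. The authors' deposited table also holds log2 fold change values and p-values of their own, which are credited where printed.

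From the deposited counts, 40757 entries were reduced to 40481 genes by collapsing 276 repeats. Gene lengths and positions came from the GENCODE annotation of GRCm38 and promoters from RefSeq (GRCm38.p6). Genes were filtered with filterByExpr, scaled with TMM and tested with the quasi-likelihood F-test of edgeR 4.0.16 in R 4.3.3, two-sided. The p-values were adjusted by Benjamini-Hochberg across the tested genes, and 0.05 was the threshold. The SE is the size of the log2 fold change divided by the square root of F. Log2 CPM used a prior count of 2. Relations to Fos used numpy 2.4.6 and scipy 1.17.1. Alternatives used DESeq2 1.42.0, limma 3.58.1, RLE scaling, other filters, replicate blocks, marker covariates, Xist classes and each library left out. The fits were also run on simulated data, with planted changes larger than those of the members in the main and interaction fits. Those runs do not show whether changes of the members' size would be found. Pairs of libraries of one group differed by at least 29.9 in chi-square per gene, so none was counted as a repeat.

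The immediate early genes, the gene lists and the tests were chosen with earlier results of these data known. Every member was named. The lowest, median and highest values were given for a list of well-known members and the members of lowest p, up to 3 genes of lowest p were named from each list, with 2 of these genes not reported here, and the 5 further genes of highest r with Fos.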

Additional observations from a re-analysis of the deposited data

Results flagged for a closer look

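In 3 of 78 groups of values looked at, one library lay far from the rest of its group, where chance gives about 1 in 20 groups. Nr4a3 was 5.22 CPM in INK-ATTAC 6, with the nearest INK-ATTAC library at 2.95 CPM. Arc was 0.877 CPM in INK-ATTAC 7, with the nearest at 0.466 CPM. Hbegf was 16.6 CPM in INK-ATTAC 7, with the nearest at 12.5 CPM. The cause was not tested.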

How the results depend on the processing

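The count of genes called was 6 with DESeq2, 2 with limma-voom and quality weights and 1 with the mitochondrial share as a covariate. The lowest adjusted p of any member under any alternative, edgeR and the other tools included, was 0.659. Members at an unadjusted p under 0.05 numbered 11 with a replicate block by title number, 7 by description number, 2 with the skeletal muscle covariate, 16 in low Xist libraries alone, 0 in high Xist libraries alone, and 4 to 10 with 1 library left out. Ier3, Dusp6 and Ier2 stayed under that p with each library left out, while Egr1 did not without 3 of the 15 libraries, Btg2 without 4 and Junb without 9. The labels do not say that a number marks shared animals or batches. Of the 7 title pairs, 4 had deviations correlated above 0.1 (range -0.10 to 0.29) where all were required, with 1 control correlating best with its own number. Of the 7 description pairs, 2 were above 0.1 (range -0.15 to 0.23). The main fit therefore used no block. The numbers do follow Xist class, which was low in INK-ATTAC 1 to 4 and controls 1 to 3, so what they mark stays unknown. With that block by title the log2 fold change of Fos was -0.89 (edgeR, unadjusted p = 0.0240), of Nr4a1 -0.93 (0.0232), of Dusp1 -0.64 (0.0249) and of Egr1 -0.75 (0.108). With limma-voom and quality weights Nr4a1 was -0.94, and without INK-ATTAC 7 Fos was -0.85. The median log2 fold change was -0.34 to -0.13 with 1 library left out and 0.015 in high Xist libraries alone. Of 1139 values of single members 67 changed sign, in 23 members, and 14 members kept their sign under every alternative run (Fos, Fosl2, Junb, Klf4, Klf10, Csrnp1, Dusp1, Dusp6, Errfi1, Btg2, Gadd45g, Ier2, Ier3 and Hbegf). The values that changed sign follow. With limma-voom Fosl1 was -0.14, Jund -0.030 and Trib1 -0.00597. With quality weights as well Fosl1 was -0.082, Jund -0.034, Trib1 -0.026 and Ier5 0.047. With the replicate block by title number Fosl1 was -0.16 and Jund -0.075. With the replicate block by description number Fosl1 was -0.17, Jund -0.063 and Trib1 -0.012. With the rod covariate Trib1 was -0.031. With the muscle covariate Jun was 0.11, Klf2 0.082, Klf6 0.043, Nr4a1 0.052, Nr4a2 0.039, Nr4a3 0.051, Myc 0.20, Dusp5 0.044, Socs3 0.14, Trib1 -0.060 and Rhob 0.13. With the lens covariate Atf3 was -0.010, Nr4a3 0.22 and Trib1 -0.044. With the endothelial covariate Jund was -0.00367 and Trib1 -0.00645. With Xist class as a covariate Jund was -0.014 and Trib1 -0.022. With the mitochondrial share as a covariate Jund was -0.054, Nr4a3 0.00635 and Gadd45b -0.044. In high Xist libraries alone Fosb was 0.11, Jun 0.051, Maff 0.015, Egr1 0.15, Egr2 0.075, Klf2 0.28, Nr4a1 0.030, Nr4a3 0.26, Dusp5 0.38, Sik1 0.054, Trib1 -0.022, Zfp36 0.048, Arc 0.18 and Rhob 0.22. In low Xist libraries alone Jund was -0.40, Trib1 -0.021 and Ier5 0.030. With 1 library left out Jund ranged from -0.12 to 0.080, Trib1 from -0.067 to 0.035, Nr4a3 from -0.40 to 0.080 and Socs3 from -0.27 to 0.063. The cause of these changes was not tested. At the counts of Npas4 a difference was not detectable. Egr3, with 23 counts in all INK-ATTAC libraries and 49 in all control libraries, was not tested for a difference. Within Xist classes 3 or 4 libraries a group limit the precision.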
